A study of Mus musculus with 2 samples.

Results

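Melanoma cells with strong expression of type I interferon response genes were described in a single-cell experiment on mouse B16F10 tumours. They were the barcodes with at least 1000 detected genes and at most 15% mitochondrial counts in which the unique molecular identifiers (UMIs, counts of captured RNA molecules) of Ifit1, Ifit2, Ifit3, Isg15 and Rsad2 summed to 5 or more. Of 9644 barcodes past the cell filter, 540 met this rule (5.60%, exact 95% interval 5.15 to 6.08) and are called interferon-high cells here. A further 3070 barcodes (31.8%) had a sum of 1 to 4, and 6034 (62.6%) had a sum of 0 and served as the comparison. The members were chosen by a readout, so every value of the 5 rule genes, and every ratio between interferon-high cells and cells with a sum of 0, is a description without a test.

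B16F10 is a melanoma line of C57BL/6 mice. The tumour cells came from 3 sources: the lungs of wild-type mice (WT lung), the lungs of perforin-deficient mice (Prf1-/- lung) and the bones, taken as knees, of perforin-deficient mice (Prf1-/- bone). Perforin is the pore-forming protein that cytotoxic lymphocytes use to kill targets. There were no wild-type bones, so bone was seen in perforin-deficient hosts alone. Cells were sorted as GFP-positive, CD45-negative and DAPI-negative, which selects live tumour cells and leaves out leukocytes. They were then marked by source with hashtag antibodies and run as 1 pool with 1 RNA library and 1 hashtag library. Knees were digested for longer than lung tumours, so digestion and site cannot be told apart. How many mice each source pools is not stated in the labels, and each source is 1 sample, so sources were compared without tests and all intervals cover counting error only.

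Type I interferons bind a receptor present on nearly all cells and, through the kinases JAK1 and TYK2, activate a transcription factor complex with STAT2 and IRF9 that binds interferon-stimulated response elements in promoters. The induced genes block virus replication, tag proteins with the ubiquitin-like ISG15, sense foreign nucleic acid and raise antigen presentation. Interferon gamma acts through its own receptor on a partly shared set of genes, among them guanylate-binding proteins, Cxcl9 and MHC class II. In melanoma, interferon responses are known to accompany lymphocyte infiltration and recognition of tumour cells.

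Ifit1, Ifit2 and Ifit3 encode tetratricopeptide proteins that bind viral RNA or its partners, Isg15 the ubiquitin-like modifier and Rsad2 viperin, an antiviral enzyme. The promoters of 4 rule genes, of Ifit3b and of the chemokine gene Cxcl10 are shown. The rule genes set the classes, and Ifit3b and Cxcl10 were among the higher genes below. Each was picked because its window holds the response element, so these windows are examples and no evidence. Each is the RefSeq window of GRCm38.p6 from 250 bases before to 50 after an annotated start, on the gene's strand. For Ifit3 and Ifit3b that start lies inside the gene span, which begins at chr19:34583119 and chr19:34607530. Capitals mark GAAANNGAAA, a 10-letter form of the response element, or the same letters on the opposite strand.
Ifit1: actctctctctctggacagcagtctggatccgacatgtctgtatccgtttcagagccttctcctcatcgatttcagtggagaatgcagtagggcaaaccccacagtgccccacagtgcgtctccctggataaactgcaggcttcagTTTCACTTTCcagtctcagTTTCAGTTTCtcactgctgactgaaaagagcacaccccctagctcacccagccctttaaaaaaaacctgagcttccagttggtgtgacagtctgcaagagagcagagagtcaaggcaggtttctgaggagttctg
Ifit3: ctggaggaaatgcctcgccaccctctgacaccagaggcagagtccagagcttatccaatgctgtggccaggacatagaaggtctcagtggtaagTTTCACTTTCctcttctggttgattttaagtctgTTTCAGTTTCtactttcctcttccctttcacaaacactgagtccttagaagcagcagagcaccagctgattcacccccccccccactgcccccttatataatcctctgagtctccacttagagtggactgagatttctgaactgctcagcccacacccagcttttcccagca
Ifit3b: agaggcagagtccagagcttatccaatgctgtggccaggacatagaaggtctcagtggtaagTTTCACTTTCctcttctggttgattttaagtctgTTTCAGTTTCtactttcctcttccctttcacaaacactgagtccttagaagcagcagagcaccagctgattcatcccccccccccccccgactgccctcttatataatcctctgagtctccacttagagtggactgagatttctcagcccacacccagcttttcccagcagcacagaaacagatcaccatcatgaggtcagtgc
Isg15: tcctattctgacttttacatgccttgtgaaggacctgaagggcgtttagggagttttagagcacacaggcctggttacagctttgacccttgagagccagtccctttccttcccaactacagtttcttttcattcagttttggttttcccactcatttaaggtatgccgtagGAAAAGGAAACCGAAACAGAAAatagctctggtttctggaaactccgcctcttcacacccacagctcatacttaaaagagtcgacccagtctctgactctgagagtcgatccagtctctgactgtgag
Rsad2: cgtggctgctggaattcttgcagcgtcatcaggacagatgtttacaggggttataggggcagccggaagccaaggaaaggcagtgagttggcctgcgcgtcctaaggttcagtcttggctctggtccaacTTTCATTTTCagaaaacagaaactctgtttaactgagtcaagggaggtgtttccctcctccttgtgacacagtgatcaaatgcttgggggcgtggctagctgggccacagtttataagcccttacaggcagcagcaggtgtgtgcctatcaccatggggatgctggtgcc
Cxcl10: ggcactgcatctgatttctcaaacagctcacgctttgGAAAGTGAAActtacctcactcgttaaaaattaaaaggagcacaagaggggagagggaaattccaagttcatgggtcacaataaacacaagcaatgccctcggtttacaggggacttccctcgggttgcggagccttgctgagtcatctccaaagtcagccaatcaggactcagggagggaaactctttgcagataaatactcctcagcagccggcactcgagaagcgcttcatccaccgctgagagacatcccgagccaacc
The windows lie at chr19:34640639-34640938 (Ifit1), chr19:34583279-34583578 (Ifit3) and chr19:34607707-34608006 (Ifit3b) on the plus strand. On the minus strand, those of Isg15, Rsad2 and Cxcl10 lie at chr4:156200769-156201068, chr12:26456403-26456702 and chr5:92348840-92349139.

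The Ifit1 window held 2 matches, 104 to 95 and 85 to 76 bases before the start. The Ifit3 and Ifit3b windows held 2 each, with the same letters in both genes, and shared an unbroken run of 169 bases. The Isg15 window held 3 overlapping matches between 78 and 57 bases before the start, and the Rsad2 and Cxcl10 windows 1 each. Neither of the windows of Ifit2 held these letters, which says nothing beyond those windows. Of the 27025 genes with a RefSeq window, 1079 (3.99%) held at least 1 match.

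The rule-gene UMIs were held by few cells. The 540 interferon-high cells carried 6195 of 11001 rule-gene UMIs (56.3%), and 405 cells carried 50% of them. The sum had a mean of 1.14 per cell and a variance 10.96 times its mean. Among interferon-high cells the median sum was 8 and the highest 77, with 213 cells at 10 or more and 68 at 20 or more. The distribution fell without a gap at the threshold, with 167 cells at a sum of 4 and 119 at 5. Whether the cells above it form a distinct type cannot be read from this sum.

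**Figure D1:**
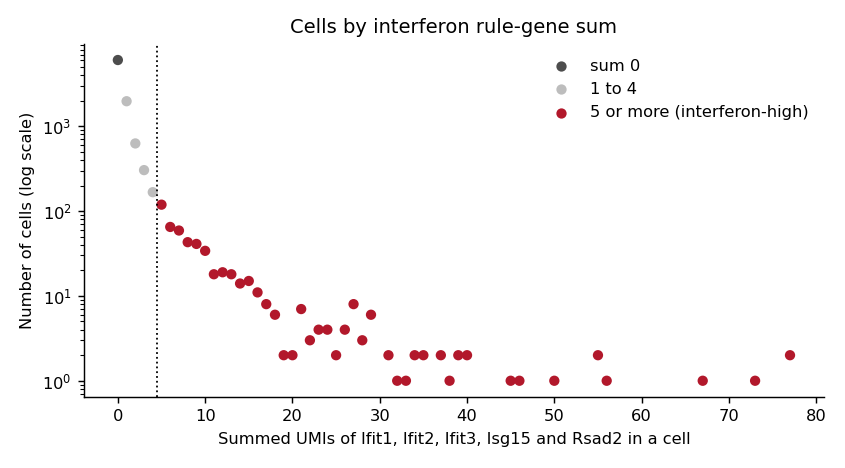
Number of cells (log axis) at each summed UMI count of Ifit1, Ifit2, Ifit3, Isg15 and Rsad2 over the 9644 cells past the filter; each point is 1 value of the sum. The counts fall smoothly through the threshold of 5 (dotted line), from 167 cells at 4 to 119 at 5, and reach a sum of 77.

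The rule genes occurred together in the same cells. Ifit3 had a UMI in 486 of the 540 interferon-high cells, Isg15 in 78.3%, Ifit1 in 76.1%, Rsad2 in 69.8% and Ifit2 in 32.8%. All 5 were seen in 85 of the 540 cells, 4 in 194, 3 in 170, 2 in 72 and 1 in 19, of which 10 rested on Isg15, 8 on Ifit3 and 1 on Ifit1. Each gene was also read in cells picked by the other 4 alone. Ifit1 had a UMI in 71.2% of the cells in which the other 4 summed to 5 or more, against 3.61% of those in which they summed to 0. The same pair of shares was 84.6% and 7.17% for Ifit3, 69.9% and 11.3% for Isg15, 64.3% and 7.10% for Rsad2, and 30.2% and 5.25% for Ifit2. Ifit3 and Ifit3b are near-identical neighbours, so how the counting divided their reads is uncertain.

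The interferon-high cells carried the transcripts of the tumour line. All 540 had a UMI of at least 1 of 9 melanoma markers, with a median of 34 marker UMIs per cell against 31 in cells with a sum of 0. Their median depth was 2826 UMIs and 1416.5 genes, against 2502 UMIs and 1280 genes at a sum of 0, so they were somewhat deeper. The median mitochondrial share was 2.16% against 2.28%. Transcripts of T and NK cells summed to 0.589 CPM (UMIs scaled to a total of 1e+06 in each class) in interferon-high cells and 0 in the comparison, with 11 of 12 markers at 0 in both. Monocyte, macrophage and dendritic cell markers summed to 11.2 against 13.8 CPM, neutrophil markers to 0 against 6, and endothelial markers to 94.8 against 95.1. B and plasma cell markers stood at 4.71 against 2.30 CPM on 8 UMIs, fibroblast and osteoblast markers at 15.9 against 27.2, and erythroid markers at 2.35 against 7.03. At a sum of 0, 1 cell had 10 or more neutrophil marker UMIs, 2 had as many of fibroblast and osteoblast and 2 of erythroid markers. By cell, fibroblast and osteoblast markers were seen in 3.33% of interferon-high cells (1.99 to 5.22) against 2.02% (1.68 to 2.41). Erythroid markers were seen in 0.741% (0.202 to 1.89) against 0.298% (0.177 to 0.471), so the lower sums were not lower shares of cells. The list for plasmacytoid dendritic cells stood at 1039 against 489 CPM, of which Bst2, also an interferon-induced gene, made up 963 and 427. Pacsin1, another gene of that list, was at 8.24 against 1.82 CPM (14 and 30 UMIs, 4.53-fold, 2.22 to 8.82), below the filter for measured genes. Tcf4 was at 66.5 against 60.5 CPM, Irf8 had 2 and 4 UMIs, Ccr9 0 and 2, and Siglech and Klk1 none. The part of these transcripts in the differences below was not tested beyond leaving such cells out. Among the 82 genes that mark other cell types, 7.41% of interferon-high cells (5.34 to 9.95) had 2 or more UMIs, against 5.54% (4.97 to 6.14). Leaving out those cells gave 276 genes higher and 104 lower, against 267 and 104 with them (counts defined below). Doublets of 2 tumour cells cannot be seen this way. The barcodes with no dominant hashtag, where such doublets of different sources would fall, had 20 interferon-high cells of 242 (8.26%, 5.12 to 12.5) at a median depth of 3695.5 UMIs.

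The share of interferon-high cells was highest in WT lung. It was 7.42% there (91 of 1227 cells, 6.01 to 9.03), 4.41% in Prf1-/- lung (67 of 1520, 3.43 to 5.56) and 5.45% in Prf1-/- bone (21 of 385, 3.41 to 8.22). Barcodes that the hashtag matrix does not list, whose source is unknown, had a share of 5.44% (341 of 6270, 4.89 to 6.03). The intervals of WT lung and Prf1-/- lung did not overlap, and that of bone overlapped all others. The difference between mice was not measured.

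The order among the lower sources was not the same at other settings. The median depth was 2909 UMIs in WT lung, 2826.5 in Prf1-/- lung, 3107 in bone and 2418 in unlisted barcodes, and over all cells the share was 4.55% among those with up to 2137 UMIs and 8.22% among those with 3238 or more. At a threshold of 3 UMIs the share was 8.55% in Prf1-/- lung, 9.09% in bone and 9.74% in unlisted barcodes. With each cell thinned to 1500 UMIs and a sum of at least 2, which left out 7 cells, the share was 14.8% in WT lung (12.9 to 16.9) and 7.50% in Prf1-/- lung (6.23 to 8.95). It was 7.53% in bone (5.10 to 10.6) and 10.2% in unlisted barcodes (9.42 to 10.9). The summed rule-gene level over all cells was 515, 329, 336 and 402 CPM in the same order. WT lung was thus highest by each of these measures over all its cells, though not at every depth. Prf1-/- lung and bone lay close together after thinning and in CPM. Thinning changed depth and threshold together, so their parts cannot be told apart. In bone, 8 of the 21 interferon-high cells came from its 35 cells with up to 2137 UMIs (22.9%, 10.4 to 40.1), the reverse of the trend with depth in the pool. The share of WT lung at that depth was 5.85% (2.96 to 10.2). Between 2138 and 2569 UMIs it was 4.74%, close to 4.59% in unlisted barcodes and 4.55% in bone, and at 3238 or more it was 10.2%.

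**Figure D2:**
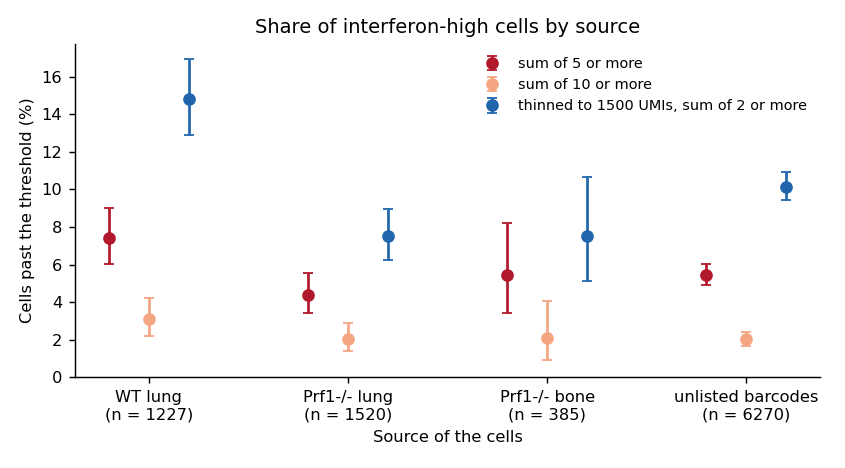
Percent of cells past each threshold of rule-gene UMIs (y axis) by source, with exact 95% binomial intervals for counting error. WT lung is highest at a sum of 5 or more (7.42%), at 10 or more (3.10%) and after thinning (14.8%).

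Without the interferon-high cells, the rule genes stood at 238 CPM in WT lung (222 to 254), 162 in Prf1-/- lung (151 to 175), 153 in bone (132 to 177) and 187 in unlisted barcodes (181 to 194). These are values of the genes that set the classes, and interferon-high cells are left out by the same cut in every source. Isg15 stood apart in unlisted barcodes. In interferon-high cells it was at 412 CPM in WT lung (344 to 488), 412 in Prf1-/- lung (336 to 501), 411 in bone (266 to 607) and 1023 in unlisted barcodes (960 to 1089). Over all cells its level was 85.1, 54.6, 52.3 and 130 CPM in that order. Ifit1, for comparison, was at 742, 772, 707 and 706 CPM in interferon-high cells of these sources. The cause of the Isg15 difference was not tested.

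For all other genes, UMIs were summed over the 540 interferon-high cells (1698743 UMIs) and the 6034 cells with a sum of 0 (16500015 UMIs). A gene was counted as higher or lower when the ratio of CPM was at least 1.5-fold and its exact interval left out 1. Of 7761 measured genes, 267 were higher (3.44%) and 104 lower (1.34%), with a median log2 ratio of -0.02. Of the 267, 105 were in the pathway lists described here and 162 were not, and of the 104, 2 were in the lists. The level filter used the mean of both classes, and 76 of the 267 were under 10 CPM at a sum of 0. Those passed only through their level in interferon-high cells and had to differ, so the counts of higher genes support nothing on their own. A stricter rule for naming, with the whole interval beyond 1.5-fold, was met by 93 genes on the higher side and 0 on the lower. The lists were chosen for the interferon response, so their shares cannot be read as independent evidence of its direction.

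**Figure D3:**
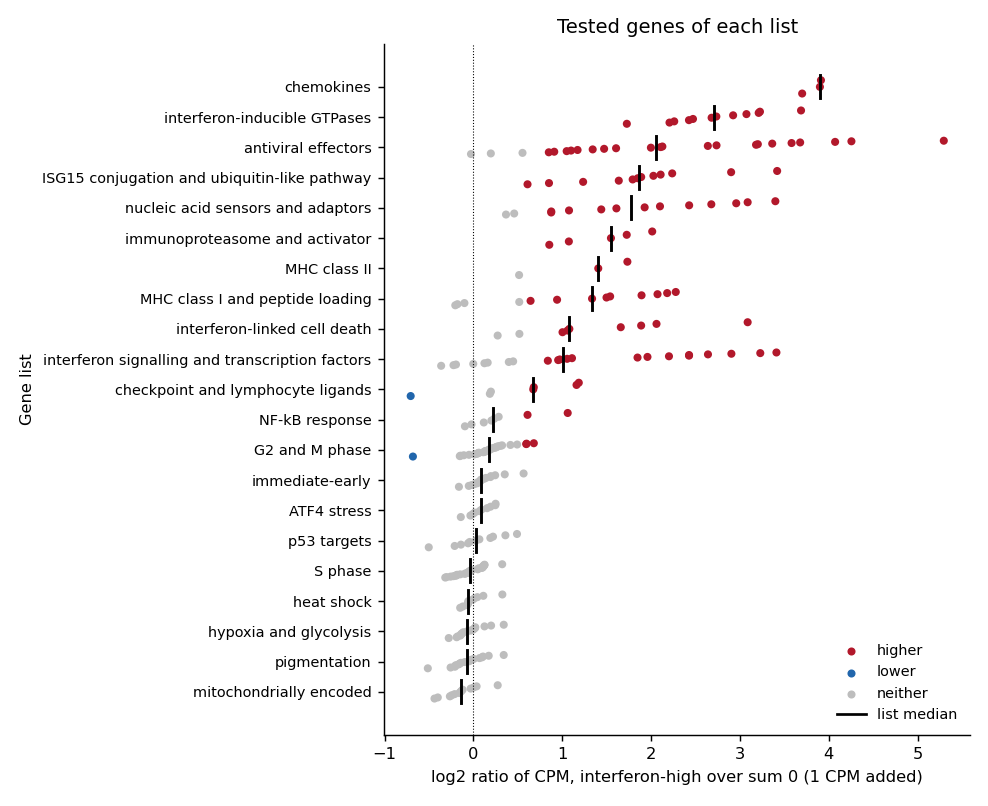
Each point is 1 measured gene of a list, placed at its log2 ratio of CPM in interferon-high cells over cells with a sum of 0 (1 CPM added to both). Red points are higher and blue points lower at 1.5-fold with an interval that leaves out 1, grey points are neither, and black bars are list medians. Interferon-linked lists lie to the right of 0, led by chemokines (median 3.90) and GTPases (2.71), while pigmentation, stress and metabolic lists lie around 0.

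Antiviral effectors outside the rule were higher in interferon-high cells. Of 24 measured, 21 were higher and none lower, beside 3.44% and 1.34% of all measured genes. The median log2 ratio was 2.05 against -0.02 over all genes. Ifit3b, a close copy of Ifit3, had the highest ratio among the genes that met the naming rule, at 262 against 5.70 CPM (45.98-fold, 36.7 to 58.1). In interferon-high cells it stood at 283 CPM in WT lung, 255 in Prf1-/- lung, 477 in bone and 254 in unlisted barcodes, against 7.596, 6.23, 3.89 and 5.30 CPM in cells with a sum of 0. Each source had the higher level in its interferon-high cells. Ifit3b is near-identical to Ifit3, which the rule sets to 0 in the comparison, so its ratio may not be independent of the rule. At 5.70 CPM at a sum of 0, Ifit3b also passed the level filter only through interferon-high cells. The oligoadenylate synthetase-like genes Oasl1 and Oasl2 were 22.7-fold (17.5 to 29.8) and 20.3-fold (15.3 to 27.2) higher. Isg20, an exonuclease gene, was 15.6-fold, Ifi44 14.7-fold and Cmpk2, a mitochondrial nucleotide kinase gene next to Rsad2, 12.5-fold higher. Oasl1, Oasl2, Isg20, Ifi44 and Cmpk2 were at 4.97, 4.48, 4.18, 4.00 and 4.24 CPM at a sum of 0. These genes too passed the level filter only through interferon-high cells and had to differ. Broadly expressed effectors differed less. Ifitm3, which restricts virus entry, was at 1993 against 785 CPM (2.54-fold, 2.44 to 2.64) and had a UMI in 96.9% against 75.04% of cells. Bst2, or tetherin, was 2.26-fold higher, whereas Ifi27 had a ratio of 1.15 and Ifitm2 one of 0.982.

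The measured genes of the ISG15 pathway were higher. All 12 measured genes of ISG15 conjugation and related ubiquitin-like or ADP-ribosylation enzymes were higher, with a median log2 ratio of 1.87, beside 3.44% of all measured genes. Dtx3l, Parp10 and Trim25 were at 8.91, 8.12 and 8.42 CPM at a sum of 0. They passed the level filter only through interferon-high cells and had to differ. Rnf31, the list member that the filter left out, had a ratio of 1.62 (0.908 to 2.72). Usp18, the protease that removes ISG15 and restrains the interferon receptor, was at 264 CPM in WT lung, 235 in Prf1-/- lung, 345 in bone and 298 in unlisted barcodes. In cells with a sum of 0 it was at 30.4, 25.6, 20.7 and 23.7 CPM. That is an 11.1-fold difference over all cells (9.69 to 12.7), and each source showed it. Parp14 was 8.06-fold higher and Herc6, the mouse ISG15 ligase, 4.799-fold. Ube2l6, its conjugating enzyme, was 4.28-fold and Uba7, the activating enzyme, 1.57-fold higher (1.05 to 2.29).

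Sensors of foreign nucleic acid were higher too. Of 14 measured, 12 were higher and none lower, beside 3.44% and 1.34% of all measured genes, with a median log2 ratio of 1.77. The RIG-I-like receptor genes Dhx58, Ifih1 and Ddx58 were 12.9-fold, 8.30-fold and 4.37-fold higher. Dhx58, at 4.06 CPM at a sum of 0, passed the level filter only through interferon-high cells and had to differ. Zbp1, a sensor of Z-form nucleic acid that can start necroptosis, was at 134 against 14.9 CPM (9.002-fold, 7.49 to 10.8). Eif2ak2, the RNA-activated kinase PKR, was 2.74-fold and Cgas, the DNA sensor, 1.91-fold higher. The adaptor Tmem173 (STING) had a ratio of 1.39 (1.03 to 1.85) and the kinase Tbk1 one of 1.31 (0.9185 to 1.81), both short of the threshold.

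In interferon signalling, 14 of 22 measured genes were higher and none lower, beside 3.44% and 1.34% of all measured genes. The median log2 ratio was 1.01. Irf7, the factor that amplifies interferon-alpha transcription, was at 128 against 12.8 CPM (10.04-fold, 8.27 to 12.2). Stat2 was 6.83-fold, Irf1 4.81-fold and Irf9 1.98-fold higher. The nuclear body genes Sp110, Sp140 and Sp100 were 13.3-fold, 5.90-fold and 5.67-fold higher. Genes such as Stat2 and Sp110, at 8.79 and 3.58 CPM at a sum of 0, passed the level filter only through interferon-high cells. Stat3 had a ratio of 1.32 (1.13 to 1.54) and Irf3 one of 1.37 (1.08 to 1.72), both short of the threshold. The receptor genes Ifnar1, Ifnar2, Ifngr1 and Ifngr2 had ratios of 0.849 (0.550 to 1.26), 0.999 (0.812 to 1.22), 0.761 (0.435 to 1.25) and 1.09 (0.875 to 1.35). Jak1 had a ratio of 1.12 (0.950 to 1.31), while Jak2 was 2.05-fold higher. Transcripts of the ligands were near or below detection. Of 21 interferon genes, 20 had no UMI in either class, and Ifnz had 5 UMIs in cells with a sum of 0 and none in interferon-high cells. At a median depth of 2826 UMIs, this does not show that no cell expressed an interferon gene.

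Interferon-inducible GTPases, which attack membranes around intracellular pathogens, were higher where measured. The 12 measured genes, of 20 in the matrix, had ratios from 3.58 to 13.4 and a median log2 ratio of 2.71. Some, such as Gbp4 at 2.67 CPM at a sum of 0, passed the level filter only through interferon-high cells. Iigp1 was at 427 CPM in WT lung, 400.3 in Prf1-/- lung, 625 in bone and 207 in unlisted barcodes, against 47.1, 15.9, 69.9 and 15.5 at a sum of 0. Over all cells it was 13.4-fold higher (11.7 to 15.4). Gbp4, Gbp2 and Gbp7, guanylate-binding protein genes, were 12.4-fold, 8.87-fold and 5.51-fold higher, and the immunity-related GTPase genes Igtp and Ifi47 were 9.91-fold and 7.95-fold. The summed level of the list was highest in bone. In interferon-high cells it was 1589.9 CPM in WT lung, 1351 in Prf1-/- lung, 2137 in bone and 1096 in unlisted barcodes. In cells with a sum of 0 it was 260.3, 138, 337 and 134 CPM, so bone and WT lung were the higher sources in both classes.

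Most genes of antigen processing for MHC class I were higher. All 5 genes of the immunoproteasome and its activator were higher, with Psmb8 at 4.09-fold, Psmb9 at 3.40-fold, Psmb10 at 2.95-fold, Psme2 at 2.12-fold and Psme1 at 1.82-fold. In the MHC class I list 9 of 13 were higher and none lower, with a median log2 ratio of 1.34. Of all measured genes, 3.44% were higher and 1.34% lower. The peptide transporter genes Tap1 and Tap2 were 4.70-fold (3.89 to 5.67) and 4.15-fold higher, the non-classical H2-T23 5.68-fold, and the classical H2-K1 and H2-D1 1.93-fold and 1.56-fold. B2m, the light chain, was at 1088 against 760.1 CPM (1.43-fold, 1.36 to 1.503), short of the threshold. The class I loading factor Tapbp (tapasin) and its relative Tapbpl were 2.97-fold and 4.802-fold higher. Genes such as Tap2, H2-T23 and Tapbpl, at 6.24, 4.67 and 5.39 CPM at a sum of 0, passed the level filter only through interferon-high cells. The general chaperones Calr, Pdia3 and Canx had ratios of 0.868, 0.883 and 0.933. In cells with a sum of 0 the summed immunoproteasome level was 498 CPM in WT lung, 361 in Prf1-/- lung, 789 in bone and 348 in unlisted barcodes. In interferon-high cells it was 1367, 886, 2005 and 931 CPM, so bone was highest and WT lung next in both classes. MHC class II transcripts were sparse. Cd74 was at 34.7 against 12.5 CPM (2.78-fold, 2.05 to 3.73) and H2-Aa at 18.3 against 4.79 (3.81-fold, 2.43 to 5.84), and 13.7% of interferon-high cells had any UMI of the 7 class II genes against 6.36%. H2-Aa passed the level filter only through interferon-high cells.

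Chemokines that attract activated lymphocytes were higher. The 3 measured members, Cxcl9, Ccl5 and Cxcl10, were 17.0-fold (11.9 to 24.7), 15.3-fold (14.1 to 16.7) and 15.04-fold (14.3 to 15.9) higher. Cxcl9, at 2.97 CPM at a sum of 0, passed the level filter only through interferon-high cells and had to differ. Cxcl10 was at 2134 CPM in WT lung, 2430.4 in Prf1-/- lung, 2038 in bone and 1946 in unlisted barcodes, against 155, 131, 155 and 134 at a sum of 0. Ccl5 was at 867, 1124, 690.3 and 672 CPM in that order, against 79.0, 76.2, 11.7 and 39.0. Both were higher in every source, and Ccl5 was lowest at a sum of 0 in bone. A UMI of Cxcl10 was seen in 71.3% of interferon-high cells and 21.5% of cells with a sum of 0, and one of Ccl5 in 26.1% and 4.11%. The 540 cells held 43.6% of all Cxcl10 UMIs and 41.1% of all Ccl5 UMIs. Cells with 10 or more Cxcl10 UMIs numbered 137 among them and 42 among all other cells. For Ccl5 these numbers were 52 and 50, and at 5 or more UMIs they were 74 and 113, so many cells rich in Ccl5 lay outside the interferon-high class.

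The chemokine genes also divided the interferon-high cells, in groups set after their values were seen. Both Cxcl10 and Ccl5 reached 5 UMIs in 53 cells (9.81%), with a median rule-gene sum of 25. Cxcl10 alone did so in 152 (28.1%, median sum 11.5), Ccl5 alone in 21 (median sum 8) and neither in 314 (58.1%, median sum 7). Nfkbia, the inhibitor that NF-kB induces to limit itself, was at 114 CPM in the first group (68.6 to 178), 101 in the second (75.2 to 134), 29.0 in the third (3.52 to 105, 2 UMIs), and 28.9 in the last (19.2 to 41.7). Both groups with 5 or more Cxcl10 UMIs thus had more Nfkbia than the cells with neither, and their intervals lay apart from it. In the NF-kB list as a whole, 2 of 8 measured genes were higher, beside 3.44% of all measured genes. They were Nfkbia (2.13-fold) and Relb (1.56-fold), and the median log2 ratio of the list was 0.22. Relb had a ratio below 1 in WT lung and, on very few UMIs, in bone. Nfkb1, Nfkb2, Rel and Sod2 had ratios of 1.16, 1.19, 1.23 and 0.985, each with an interval that included 1.

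The lists differed in how they followed the rule-gene sum. Summed chemokine levels were 190 CPM at a sum of 0, 294 at 1, 491 at 2 to 4, 1285 at 5 to 9 and 5272 at 10 or more. GTPases were at 158, 285, 634, 974 and 1663 CPM, and antiviral effectors at 2656, 3338, 4230.0, 5349 and 6938 CPM over the same classes. The immunoproteasome list went from 389 to 998 CPM at 5 to 9 and 1064 at 10 or more, and MHC class II from 35.1 to 106 and then 91.5. Chemokines thus differed most between the last classes, where the immunoproteasome and class II lists differed little. Just outside and inside the threshold, at sums of 4 and 5, antiviral effectors stood at 4916 and 5091 CPM, GTPases at 919 and 896 and chemokines at 502 and 917.

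**Figure D4:**
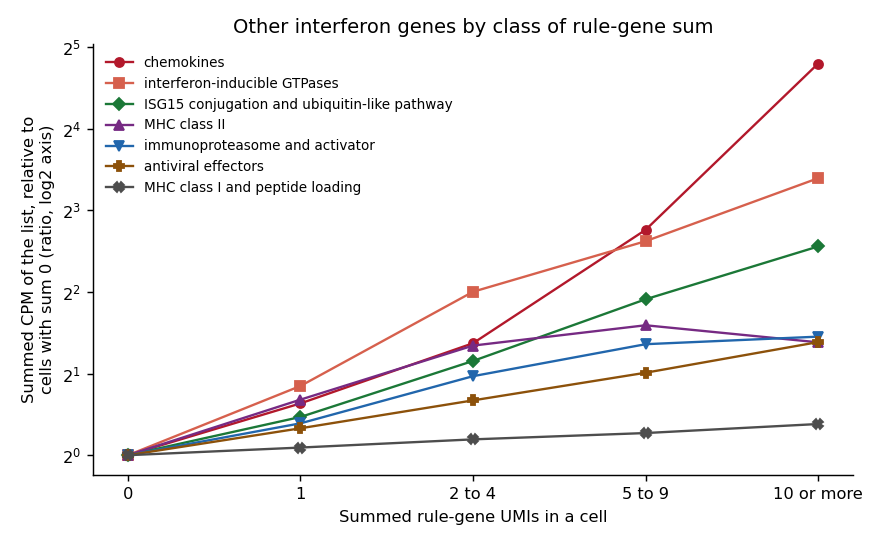
Summed CPM of each interferon-linked list, without the rule genes, by class of rule-gene sum, as a ratio to cells with a sum of 0 (log2 axis). Each point is 1 class of pooled cells, and lines join the classes of a list. Chemokines go from 190 CPM at a sum of 0 to 5272 at 10 or more, and MHC class I from 3489 to 4547.

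Genes of interferon-linked cell death were higher in 7 of 9 cases, beside 3.44% of all measured genes, with a median log2 ratio of 1.08. Beside Zbp1, Xaf1 was 4.26-fold, Daxx 3.86-fold, Pml 3.38-fold and Mlkl, the executioner of necroptosis, 2.14-fold higher. Pml, at 9.94 CPM at a sum of 0, passed the level filter only through interferon-high cells. Casp4, the receptor for intracellular lipopolysaccharide, and Gsdmd, the pore protein of pyroptosis, were 2.15-fold and 2.16-fold higher. Casp8 had a ratio of 1.44 and Bak1 one of 1.21. Of 7 measured ligands of checkpoint and lymphocyte receptors, 4 were higher and 1 lower, beside 3.44% and 1.34% of all measured genes. Lgals9 (galectin-9) was 2.30-fold, Lgals3bp 2.25-fold, Lgals3 1.61-fold and Cd47, the don't-eat-me signal, 1.605-fold higher, while Pvr, a ligand of DNAM-1 and TIGIT, was at 8.83 against 15.03 CPM (0.587-fold, 0.324 to 0.988) on few UMIs. Lgals3 and Cd47 had ratios below 1 in bone, where 1 UMI in interferon-high cells was 16.4 CPM, so no direction can be read there.

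Few genes of other tumour cell programmes were called, where 3.44% of all measured genes were higher and 1.34% lower. At those shares, lists of this length would hold few calls or none, so a lack of calls is no result about a programme. Of 18 pigmentation genes none was higher or lower, with a median log2 ratio of -0.07. In WT lung, 2 of the 18 had a ratio above 1, and the ratio of their summed levels was 0.872 (0.847 to 0.898). That ratio was 0.997 (0.966 to 1.03) in Prf1-/- lung, 0.969 (0.899 to 1.04) in bone and 1.02 (1.003 to 1.04) in unlisted barcodes. The melanosome genes Pmel, Mlana, Tyrp1 and Dct had ratios of 1.05, 1.08, 1.00 and 0.873, and the lineage factors Mitf and Sox10 ratios of 0.837 and 0.865. Mc1r, the melanocortin receptor gene, had a ratio of 0.697 (0.562 to 0.856), the lowest of the list. Of 30 S phase genes none was called, with a median of -0.04. Of 32 G2 and M phase genes, 3 were higher, namely Nusap1 (1.62-fold), Cenpe (1.52-fold) and Prc1 (1.52-fold), and Kif20a was lower (0.600-fold), with a median of 0.18. In bone alone the ratios of Nusap1 and Cenpe were below 1 and that of Kif20a above it, on very few UMIs. Heat shock (11 genes), p53 targets (11), ATF4 stress (10), hypoxia and glycolysis (17) and mitochondrially encoded genes (13) gave no calls, with medians from -0.14 to 0.08. None of 16 immediate-early genes, which tissue digestion is known to induce, was called, with a median of 0.08. Their summed level stood at 2935 against 2235 CPM in WT lung (1.31-fold, 1.22 to 1.41), with 15 of 16 ratios above 1, and at 2212 against 2582 in Prf1-/- lung (0.857-fold, 0.784 to 0.935), with 4 of 16. In bone the ratio of sums was 1.11 (0.944 to 1.297) and in unlisted barcodes 1.11 (1.06 to 1.16). Cck, which differs between bone and lung tumour cells in this pool, was at 2580.4 against 2608 CPM in bone, 211 against 201 in WT lung, 239 against 272 in Prf1-/- lung and 804 against 569 in unlisted barcodes. Over all cells its ratio was 1.185 (1.11 to 1.26), short of the threshold.

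**Figure D5:**
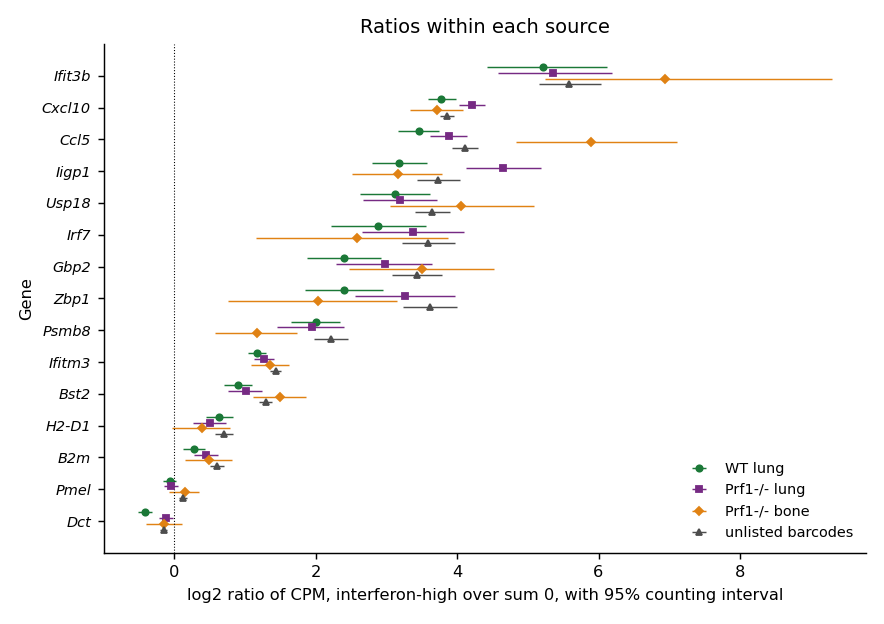
Log2 ratio of CPM in interferon-high cells over cells with a sum of 0, within each source, for 15 genes; points are ratios and bars exact 95% counting intervals. The genes from Ifit3b to Bst2 lie to the right of 0 in all 4 sources, while Pmel and Dct lie near 0, and the bars of bone, with 21 interferon-high cells, are widest.

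Other genes were singled out after their values were seen. Among those higher and outside the lists, Phf11d was at 148 against 19.2 CPM (7.72-fold). Tmem140 was 6.84-fold, Rtp4 6.57-fold and Tor3a 5.89-fold higher. Among those lower, Sox11 was at 35.3 against 61.2 CPM (0.577-fold, 0.437 to 0.749). Slc6a6, the taurine transporter gene, had a ratio of 0.613 (0.488 to 0.761), Tfrc, the transferrin receptor gene, 0.624 (0.451 to 0.845) and Ppargc1a, a metabolic coactivator gene, 0.649 (0.496 to 0.836). Sftpc, the alveolar surfactant gene, was at 4.71 against 21.2 CPM (0.223-fold, 0.0954 to 0.444). The alveolar and airway markers together summed to 7.06 against 26.9 CPM. These pooled levels include 3 cells with a sum of 0 that had 10 or more Sftpc UMIs, which the counting interval does not cover. A UMI of Sftpc was seen in 1.48% against 2.83% of cells. Any marker of the list was seen in 2.22% (1.15 to 3.85) against 3.68% (3.22 to 4.19), with overlapping intervals.

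The response element shown in the promoters above was more frequent near the starts of the higher genes. It was in the window of 50 of the 219 higher genes that have one (22.8%), 3 of 89 lower genes (3.37%) and 3.18% of the rest. Among higher genes with a ratio of 4 or more it was in 25 of 46 (54.3%), and among those with a smaller ratio in 14.5%. By list, 7 of 9 GTPases, 6 of 11 sensors and 11 of 21 antiviral effectors held it, and 0 of 8 genes of the ISG15 pathway. TTCNNNGAA, a form of the gamma-activated site, was in 11.4% of higher genes and 7.62% of the genes called neither way, beside 9.55% of all genes with a window. It was in 4 of 9 GTPases, 7 of 21 antiviral effectors, 2 of 11 sensors and 0 of 8 genes of the ISG15 pathway. The letters of the 2 motifs can overlap. These are matches of letters and were not tested as binding sites.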

How the data were processed

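Raw UMI counts, deposited by the authors as a gene matrix and a matrix of 3 hashtags, were used. Per the submitters' processing notes the build was mm10 and the tools were Seurat 4.3.0 and Cell Ranger 6.1.2; per the file header, Cell Ranger was version 6.0.0. There were 15961 barcodes with RNA and 6208 with hashtags, of which 4204 were in both and 11757 had RNA only. Hashtag barcodes had at least 503 counts. Cells past the filter had 1430 to 11974 UMIs (median 2569). A source was called where the largest hashtag was at least 2 times the second. No doublet caller was run.

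The members and gene lists were chosen with earlier results of these data known. UMIs were summed per class of cells, scaled to CPM and compared by ratio, with exact conditional binomial intervals at 95%. Shares have Clopper-Pearson intervals and levels Poisson intervals. A gene was measured at 10 CPM or more (mean of both classes) and 20 UMIs, without the 5 rule genes. Log2 ratios had 1 CPM added. Named genes were up to 15 per side with the most extreme ratio among those with 20 CPM, 50 UMIs and an interval wholly beyond 1.5-fold, the rule genes, and up to 4 members per list with the most UMIs and up to 4 with the most extreme ratio. Other genes were taken from the lists to show a family or pathway in full. For repeated symbols (40), the first entry was used. Alternatives covered the threshold, depth, thinning to 1500 UMIs, the rule genes, each source alone, cells with other markers, the library size and the filters. The ratio code was tested on simulated data. Python 3.11.15, NumPy 2.4.6, SciPy 1.17.1 and pandas 2.3.3 were used. Promoter windows came from RefSeq (GRCm38.p6). The submitters' own cell annotation was not used here. Some items withheld for evaluation are not reported here.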

Additional observations from a re-analysis of the deposited data

Results flagged for a closer look

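Fos, an immediate-early transcription factor gene, differed in opposite directions in the perforin-deficient sources. In bone it was at 937 CPM in interferon-high cells against 557 in cells with a sum of 0 (1.68-fold, 1.25 to 2.22). In Prf1-/- lung it was at 445 against 671 CPM (0.663-fold, 0.542 to 0.804). The log2 ratios differed by 1.34, and the counting intervals did not overlap. Its ratio was 1.27 (1.10 to 1.47) in WT lung and 1.07 (0.976 to 1.16) in unlisted barcodes. With 1 sample per source the difference was not tested.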

How the results depend on the processing

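The shares changed with the threshold and the cell filter. In WT lung, Prf1-/- lung, bone and unlisted barcodes they were 16.5%, 8.55%, 9.09% and 9.74% at a sum of 3 or more, and 3.10%, 2.04%, 2.08% and 2.03% at 10 or more. Thinned to 1500 UMIs with a sum of 2 or more, they were 14.8%, 7.50%, 7.53% and 10.2%. Cells with at least 2000 genes gave 14.3%, 11.7%, 2.13% (1 of 47 cells in bone) and 13.5%. Ifit1, Ifit2 and Ifit3 alone (3 or more) gave 11.002%, 5.39%, 5.45% and 5.06%. WT lung was highest in each of these settings.

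The count of 267 higher genes was 132 in bone alone and 131 at 2-fold. The count of 104 lower genes was 188 with interferon-high cells at 10 or more, 68 with the Ifit genes alone, 60 in bone alone, 168 without the top cell of each class for each gene, 197 with no CPM filter and 13 at 2-fold. The median log2 ratio of antiviral effectors was 1.59 in Prf1-/- lung alone and 1.41 with 10 CPM added. That of GTPases was 2.32 in WT lung alone, 2.21 in bone alone and 1.84 with 10 CPM added, and that of MHC class I was 0.79 in bone alone.

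Some log2 ratios had the other sign in single sources. In bone alone the checkpoint ligand median was -0.76 and the mitochondrial median 0.11, and the log2 ratios were -3.33 for Relb, -4.52 for Lgals3, -1.33 for Cd47, -0.45 for Nusap1, -1.33 for Cenpe and 0.64 for Kif20a. Relb was at -0.34 in WT lung alone. With 21 interferon-high cells in bone, 1 UMI there was 16.4 CPM. The bone ratios of these single genes thus rest on very few UMIs or none, and do not establish a direction. The summed level of the checkpoint ligands in bone had a ratio of 1.13 (0.689 to 1.77), on 21 UMIs in interferon-high cells. Among 146 named genes, 1460 gene and setting pairs kept direction and size within counting error, 431 moved and 7 reversed. Leaving out barcodes with no dominant hashtag, a setting chosen after seeing the data, gave 269 higher and 109 lower genes. No paired analysis was possible because each source is 1 sample of 1 pool. Low-level genes, the interferon ligands among them, are limited by depth: no UMI in a class is no evidence that a gene was silent.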
